A study of Mus musculus with 18 samples.

Results

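Myc, Max and the Mxd proteins form a network of transcription factors, and its genes were followed in a mouse B-cell lymphoma that is driven by one of them. The network was taken as the 10 genes Myc, Mycn, Max, Mxd1, Mxd3, Mxd4, Mxi1, Mnt, Mlx and Mga, out of 18194 genes named on the array. They were found by single gene symbol on 26 probe sets, and the probe set of highest average signal over the 17 arrays stands for each gene. All 10 passed the filter on low values and were among the 11897 genes tested. No measured difference between groups entered the choice of probe set.

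Total RNA was measured on 17 Affymetrix arrays from 3 primary Eµ-myc lymphomas, numbered 4146, 4936 and 5043. Every culture carried the Eµ-myc transgene and lacked Suv39h1, a histone methyltransferase of heterochromatin. Every culture had also received by retrovirus a Suv39h1-ERT2 fusion, which 4-OH-tamoxifen (4-OHT) switches on, and Bcl2, an inhibitor of apoptosis. The mice were of C57/Bl6 background and the cells came from lymph nodes; ages are not given in the sources used here.

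The ADR+4-OHT group (n = 3) had 5 days of Adriamycin (ADR, the DNA-damaging drug doxorubicin) with 4-OHT, and the ADR group (n = 3) had 5 days of the drug alone. Big outgrowth (n = 3) and small outgrowth (n = 3) were cells of those sizes, sorted by FACS 14 days after the end of ADR with 4-OHT. ADR outgrowth (n = 2) was taken 14 days after the end of ADR alone, and untreated cells (n = 3) had neither agent. The ADR outgrowth of lymphoma 5043, labelled as failing quality control, has no values and enters no fit. No group had 4-OHT without ADR, so 4-OHT can be compared only on top of the drug. The 3 lymphomas are the replicates, and within a lymphoma the labels do not say whether cultures were separate beyond their treatment, so p-values measure the spread between these samples.

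Myc drives growth, ribosome production and cell division, and it binds DNA only as a pair with Max, at a short motif called the E-box. Mxd1, Mxd3, Mxd4, Mxi1 and Mnt compete for Max and for the same motif, and bring histone deacetylases through the Sin3 corepressors. Mxd genes are best known for being switched on as cells stop dividing and differentiate, except Mxd3, which is made in cycling cells. In Eµ-myc mice an immunoglobulin enhancer keeps Myc on in the B lineage, so the usual balance between Myc and its Max competitors is set against a transgene.

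An E-box, read as CACGTG, lies near the start of 4 network genes: Max, Mxd4, Mnt and Mlx. It was searched in the RefSeq promoter table (GRCm38.p6; 250 bases before to 50 after each start, 300 bases each), which held 11 promoters of 9 members. The motif reads the same on both strands. It was present in 7.15% of all 32851 promoters in that table. The promoter of Mxd4, the gene whose level differed between groups, is shown whole (chr5:34187661-34187960, minus strand), and the 60 bases around the E-box are shown for Max (chr12:76962219-76962278, minus strand), Mnt (chr11:74830774-74830833, plus strand) and Mlx (chr11:101087223-101087282, plus strand). Capitals mark the E-box in lines written 5′ to 3′.
Mxd4: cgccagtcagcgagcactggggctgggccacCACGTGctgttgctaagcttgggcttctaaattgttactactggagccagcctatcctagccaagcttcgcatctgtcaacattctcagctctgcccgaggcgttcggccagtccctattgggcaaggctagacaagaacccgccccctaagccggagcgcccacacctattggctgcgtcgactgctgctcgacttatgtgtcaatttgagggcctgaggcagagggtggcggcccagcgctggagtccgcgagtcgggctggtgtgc
Max: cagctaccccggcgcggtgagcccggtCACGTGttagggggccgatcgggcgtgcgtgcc
Mnt: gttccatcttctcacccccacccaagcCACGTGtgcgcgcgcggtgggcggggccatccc
Mlx: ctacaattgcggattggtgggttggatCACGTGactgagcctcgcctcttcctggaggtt

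The E-box began 219 bases before the start of Mxd4, 123 bases before that of Mnt, 40 bases before that of Mlx and 3 bases before that of Max. A match of letters is a description of the sequence and not a measured site. No binding was measured in these samples.

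Values are log2 signals as the authors deposited them, so a difference of 1 is a 2-fold difference in signal. Where 3 values follow each other they are those of lymphomas 4146, 4936 and 5043, in that order, and ADR outgrowth has only the first pair. Each probe set has the same median in each lymphoma, so a level can be compared within a lymphoma but not as a difference between lymphomas. Signals of different genes come from different probes and are not set against each other. Differences were tested with limma in one fit over all arrays, with terms for group and lymphoma, and p-values were adjusted over the 11897 genes by Benjamini-Hochberg at 0.05.

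The ADR array of 4936 and the small and big outgrowth arrays of 5043 stood apart on the first principal component, with scores of 84.13 to 97.79 against -35.04 to 4.76 for the other 14. The same 3 arrays had the lowest Bcl2 signals, 5.61 to 6.95 against 7.58 to 9.52 on the other arrays, although all cells were labelled as transduced with Bcl2. No probe set carried the symbol of Suv39h1 alone, so Suv39h1 was not analysed here. Of 8 B-cell markers, 7 were measured and tested, and their mean signal was 7.31 to 9.79 on the 17 arrays. The mean of 5 T-cell markers was 3.88 to 5.51, on either side of the 4.86 used to filter low values. Cd79b, a B-cell receptor subunit, was between 10.25 and 12.09 on every array. Other markers of the list had means of 11.61 (Blnk), 9.52 (Cd22), 7.27 (Ebf1), 7.25 (Cd79a), 6.18 (Ms4a1) and 5.94 (Pax5). In ADR outgrowth against untreated cells 6 of 7 markers were below 0, with a median of -0.75. There limma called 0 of them, and 3 had an unadjusted p under 0.05, beside 4.49% of all genes tested.

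Mxd4 (chr5:34176580-34187710), a Max partner that represses E-box genes, was the 1 member whose level differed between groups. On its chosen probe set, 1434378_a_at, it had 10.83, 10.12 and 11.23 in ADR+4-OHT cultures and 9.55, 9.66 and 10.43 in ADR cultures, against 9.38, 9.29 and 9.47 in untreated cells. In outgrowths it had 9.40, 8.78 and 9.0 in big cells, 9.96, 9.87 and 9.41 in small cells, and 9.27 and 8.78 after ADR alone. The 3 ADR+4-OHT arrays lay above every array of the outgrowths and of untreated cells, and overlapped the ADR group through lymphoma 5043 alone. The 3 untreated arrays lay close together, but the medians of the lymphomas had been made equal. Their closeness therefore does not measure the spread between lymphomas.

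Mxd4 averaged 10.73 ± 0.57 in ADR+4-OHT cultures and 9.38 ± 0.09 in untreated cells (SD, n = 3 each, with equal lymphoma medians). It rose by 1.35 on the log2 scale, a 2.54-fold higher signal (SE 0.28, 95% CI 0.75 to 1.95, limma adjusted p = 0.0288), and was higher in 3 of 3 lymphomas. The differences within lymphomas were 1.45, 0.83 and 1.76. In that comparison 350 of the 11897 genes were called, 2.94%, of which 106 rose and 244 fell. With 10 members, 1 call is a result about Mxd4 and not about the network. These are bulk samples, in which fewer cells of a type and less RNA per cell cannot be told apart.

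A single test of any difference among the 6 groups also called Mxd4 (limma F test, adjusted p = 0.0445). It called 313 genes, 2.63%, and no other member. That call was lost in 21 of 29 alternatives, among them without the 3 arrays that stood apart (adjusted p = 0.0786), with quantile normalization (0.0507), with the mean over probe sets (0.0721) and with 14 of 17 single arrays left out. The order of the Mxd4 group means ran from ADR+4-OHT (10.73) through ADR (9.88), small outgrowth (9.74), untreated (9.38) and big outgrowth (9.06) to ADR outgrowth (9.03). ADR outgrowth lacks lymphoma 5043, and in the fit with lymphoma as a term the last 2 places turn round, at -0.32 for big outgrowth and -0.28 for ADR outgrowth against untreated cells. No pair of neighbours in that order passed a test where one was made, and the arrays of each pair of neighbours overlapped.

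The 4-OHT step itself gave a smaller Mxd4 difference that was not called. ADR+4-OHT minus ADR was 0.85 (SE 0.28, 95% CI 0.25 to 1.45, limma adjusted p = 0.257), with 1.29, 0.46 and 0.80 within lymphomas, higher in 3 of 3. ADR minus untreated was 0.50 (SE 0.28, limma adjusted p = 0.501), higher in 3 of 3. For ADR minus untreated the other tested Mxd4 probe sets did not share a direction, with 0.48 on 1434379_at and -0.21 on 1422574_at. On the latter, ADR cultures had 7.22, 7.18 and 8.15, against 7.49, 8.03 and 7.65 in untreated cells. For ADR+4-OHT minus ADR the same probe sets gave 0.81 and 0.86. Thus neither of the 2 steps that make up the called difference passed on its own, and they share the ADR arrays.

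**Figure D1:**
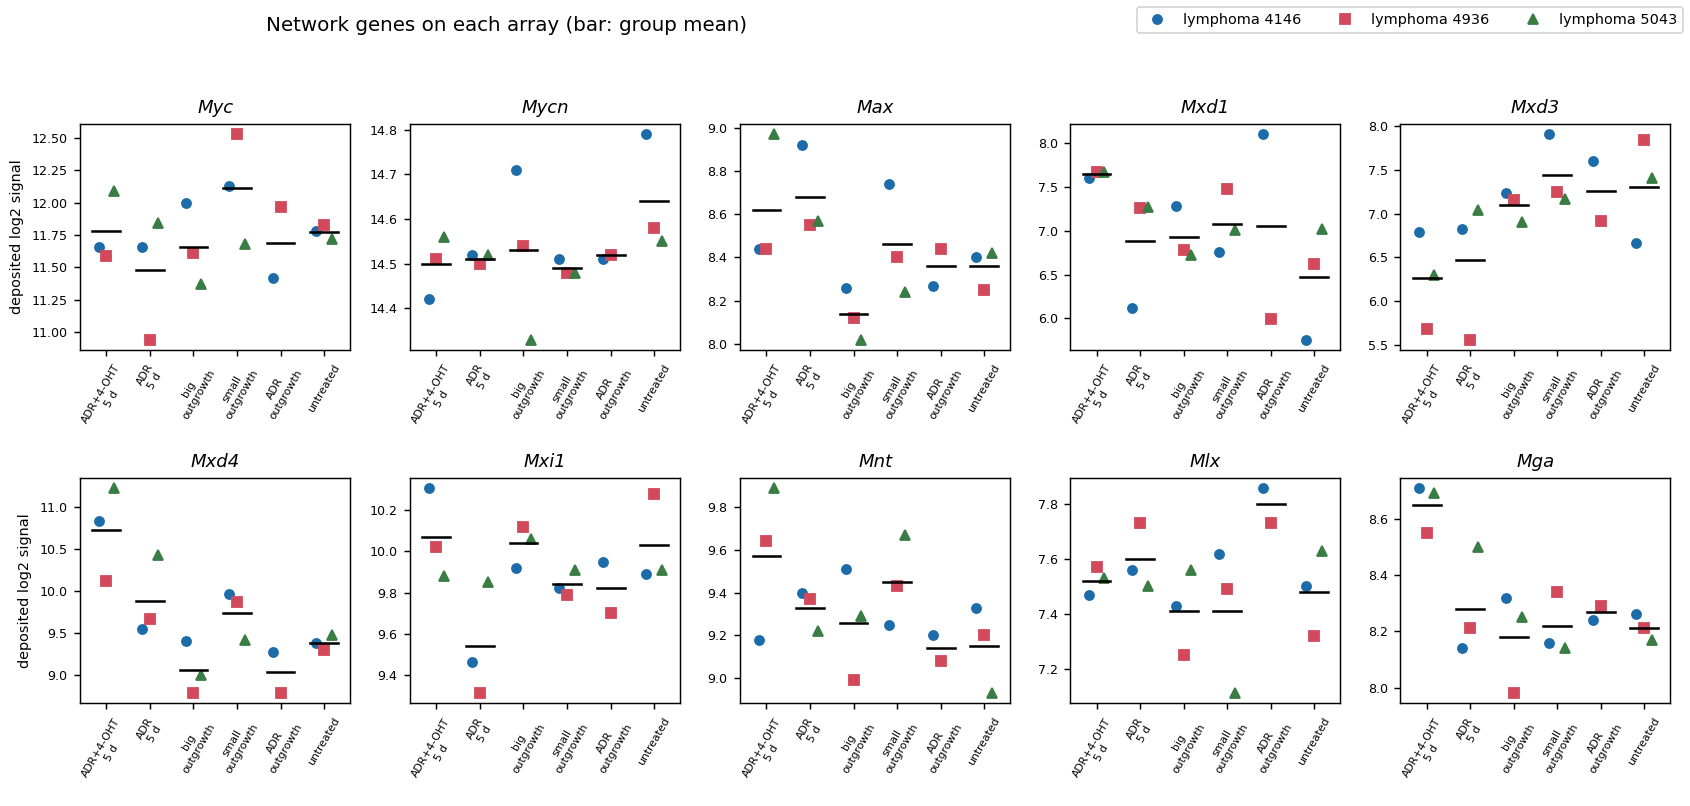
Each panel shows 1 network gene, with its deposited log2 signal on the vertical axis (scales differ), the 6 groups along the horizontal axis, a symbol for each lymphoma and a bar for the group mean. The 3 ADR+4-OHT arrays of Mxd4 sit between 10.12 and 11.23, above all 3 untreated arrays at 9.29 to 9.47, while Myc spans 10.94 to 12.53 with groups that overlap.

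The Mxd4 result was seen on 2 of its 4 probe sets. Probe set 1434379_at had 9.02, 8.45 and 9.25 in ADR+4-OHT cultures, against 7.57, 7.56 and 7.72 in untreated cells. Fitted over all 21220 probe sets tested, its difference was 1.29 (SE 0.26, limma adjusted p = 0.034), and the chosen probe set had the same adjusted p. Probe set 1422574_at had 8.34, 8.17 and 8.63 against 7.49, 8.03 and 7.65, a difference of 0.66 that was not called (SE 0.28, limma adjusted p = 0.232). There too the ADR+4-OHT arrays lay above the untreated ones. Probe set 1422575_at stayed at 4.12 to 4.70, below the filter level of 4.86 on every array, and was not tested.

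**Figure D2:**
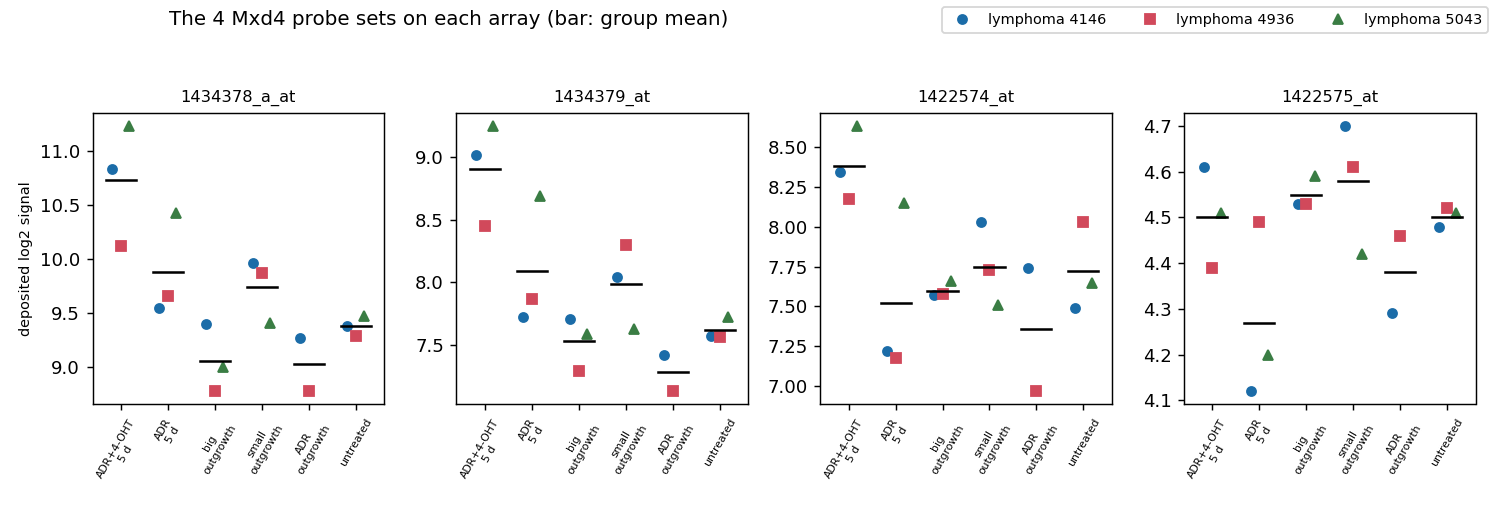
Each panel shows 1 of the 4 Mxd4 probe sets, with deposited log2 signal on the vertical axis (scales differ), the 6 groups along the horizontal axis, a symbol for each lymphoma and a bar for the group mean. On 1434378_a_at, 1434379_at and 1422574_at the 3 ADR+4-OHT arrays lie above the 3 untreated arrays, while 1422575_at stays between 4.12 and 4.70.

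The Mxd4 call depended on single arrays. The 3 arrays that stood apart belong to neither group compared, so leaving them out could not move the difference (1.35). That step changed only the shared estimate of the spread, and the call was kept (limma adjusted p = 0.0209). The call was lost without the ADR+4-OHT array of 4936 (adjusted p = 0.0648) or of 5043 (0.127), and without the untreated array of 4146 (0.0801), of 4936 (0.0985) or of 5043 (0.0978). Across all alternatives the difference ranged from 0.82 to 1.61.

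Markers of other cells differed in the same comparison. The mean of 10 macrophage markers was 5.76 to 6.47 in ADR+4-OHT cultures and 5.50 to 8.0 in ADR cultures, against 4.26 to 4.79 in untreated cells. In outgrowths it was 5.24 to 5.97 in big cells, 4.34 to 4.83 in small cells, and 5.33 to 5.46 after ADR alone. Of 7 macrophage markers tested, Lyz2 and Cd36 rose in ADR+4-OHT against untreated cells (5.87 and 4.41, limma), while Mrc1, C1qa and C1qb did not reach the filter on low values. The 7 tested had a median difference of 1.54 there, beside 1.35 for Mxd4, and of 1.37 in big outgrowth and 0.70 in ADR outgrowth against untreated cells, beside -0.32 and -0.28 for Mxd4. The ADR array of 4936, which stood apart, had the highest macrophage mean, 8.0, and a Mxd4 signal of 9.66.

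The mean of 8 fibroblast markers was 4.67 to 5.51 in ADR+4-OHT cultures and 5.77 to 7.40 in ADR cultures, against 4.34 to 4.93 in untreated cells. Of 5 tested, limma called 0 in either 5-day group against untreated cells. All 5 were above 0 in both, with a median of 0.92 in ADR+4-OHT (0 at an unadjusted p under 0.05) and of 2.17 in ADR (5 at an unadjusted p under 0.05). Over all genes tested, 19.2% and 11.3% had such a p in these comparisons. The part of macrophage or fibroblast RNA in the Mxd4 difference was not tested.

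Proliferation genes were lower in the same comparison. Their mean signal was 9.09 to 10.56 in ADR+4-OHT cultures and 10.25 to 10.74 in ADR cultures, against 10.94 to 11.34 in untreated cells. Of 7 tested, 4 fell in ADR+4-OHT against untreated cells: the mitotic kinase gene Aurkb (-1.77), the cycling marker Mki67 (-1.65), the topoisomerase gene Top2a (-1.46) and the cyclin gene Ccna2 (-1.42). The calls held in 22 of 29 alternatives for Aurkb, 15 for Mki67, 21 for Top2a and 10 for Ccna2. The median difference of the 7 was -0.40, -1.68 and -2.17 within the lymphomas, beside 1.45, 0.83 and 1.76 for Mxd4. Their part in the Mxd4 difference was not tested. The signal of Actb at its 3′ minus its 5′ probe set, a sign of RNA quality, was 1.17 to 1.51 in ADR+4-OHT cultures and 1.39 to 1.65 in untreated cells.

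**Figure D3:**
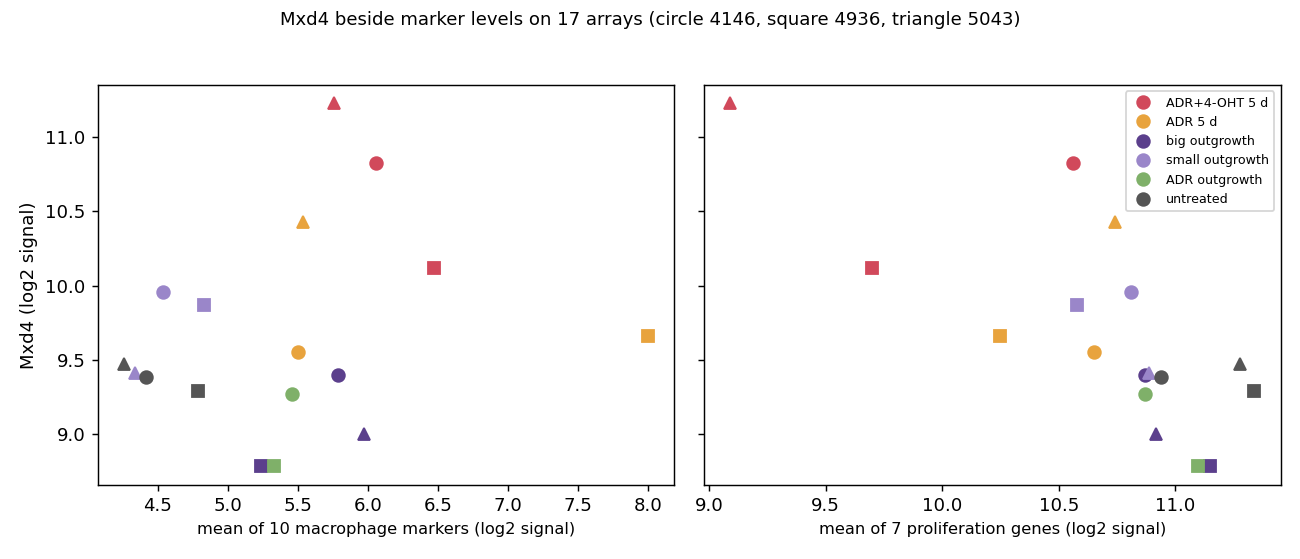
Mxd4 log2 signal (vertical axis) is plotted on each of 17 arrays against the mean log2 signal of the macrophage markers (left) and of the proliferation genes (right), with colours for groups and symbols for lymphomas. The 3 ADR+4-OHT arrays are high in Mxd4 at macrophage means of 5.76 to 6.47, and the ADR array of 4936 has the highest macrophage mean, 8.0, with Mxd4 at 9.66.

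Mxd1 (chr6:86647044-86669234), the founding Mxd repressor, was higher in ADR+4-OHT than in untreated cells without passing the test. It had 7.60, 7.67 and 7.67 in ADR+4-OHT cultures and 6.12, 7.26 and 7.27 in ADR cultures, against 5.76, 6.62 and 7.02 in untreated cells. The outgrowth arrays gave 7.28, 6.78 and 6.72 in big cells, 6.76, 7.47 and 7.01 in small cells, and 8.10 and 5.99 after ADR alone. The ADR+4-OHT arrays lay above all untreated arrays, while the pair of ADR outgrowths lay at the top and near the bottom of the whole range.

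The Mxd1 difference between ADR+4-OHT and untreated cells was 1.18 (SE 0.50, 95% CI 0.08 to 2.28, limma adjusted p = 0.227), higher in 3 of 3 lymphomas. Probe set 1455104_at gave the same 1.18 with a smaller error (SE 0.36, limma adjusted p = 0.105 over probe sets), and 1422002_at gave 0.14. The chosen probe set of Mxd1 thus left a wide interval that includes differences near 0.

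Mxd3 (chr13:55325170-55329900), the Mxd gene of cycling cells, was lower in both lymphomas with the stronger fall of proliferation genes. It had 6.79, 5.68 and 6.30 in ADR+4-OHT cultures and 6.83, 5.56 and 7.04 in ADR cultures, against 6.67, 7.84 and 7.41 in untreated cells. Outgrowth cells measured 7.24, 7.16 and 6.90 when big and 7.91, 7.25 and 7.17 when small, and 7.60 and 6.92 after ADR alone. In 4146 the level was close in ADR+4-OHT, ADR and untreated cells, and the groups overlapped through that lymphoma.

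The Mxd3 difference between ADR+4-OHT and untreated cells was -1.05 (SE 0.40, 95% CI -1.93 to -0.17, limma adjusted p = 0.177), with 0.12, -2.16 and -1.11 within lymphomas. Its other probe sets gave -0.47 and -0.72, and neither was called. ADR minus untreated was -0.83 (SE 0.40, limma adjusted p = 0.451), with 0.16, -2.28 and -0.38 within lymphomas, and the 4936 value rests on an array that stood apart.

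Mxi1 (chr19:53310128-53373293), a Mxd repressor, was lowest in ADR cultures. It had 10.31, 10.02 and 9.88 in ADR+4-OHT cultures and 9.46, 9.31 and 9.85 in ADR cultures, against 9.89, 10.28 and 9.91 in untreated cells. In outgrowths it had 9.92, 10.12 and 10.06 in big cells, 9.82, 9.79 and 9.91 in small cells, and 9.95 and 9.70 after ADR alone. The low ADR level was carried by 4146 and 4936, while 5043 hardly differed. The lowest value, 9.31, was that of the ADR array of 4936, which stood apart.

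ADR+4-OHT minus ADR was 0.53 for Mxi1 (SE 0.18, unadjusted p = 0.0125, limma adjusted p = 0.273), with 0.85, 0.71 and 0.03 within lymphomas. ADR minus untreated was -0.49 (SE 0.18, limma adjusted p = 0.374), lower in 3 of 3. Probe set 1425732_a_at gave 0.09 for ADR+4-OHT minus ADR, so the 2 Mxi1 probe sets did not show that difference alike.

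Mnt (chr11:74830806-74845725), a repressor made in most cells and the most widespread rival of Myc for Max, differed little. It had 9.18, 9.64 and 9.89 in ADR+4-OHT cultures and 9.40, 9.37 and 9.22 in ADR cultures, against 9.33, 9.20 and 8.93 in untreated cells. The outgrowth arrays gave 9.51, 8.99 and 9.29 in big cells, 9.25, 9.43 and 9.67 in small cells, and 9.20 and 9.08 after ADR alone. ADR+4-OHT minus untreated was 0.42 (SE 0.21, 95% CI -0.03 to 0.87, limma adjusted p = 0.299), and in 4146 the difference had the other sign (-0.15).

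Mga (chr2:119872503-119970129) is a large Max partner that also belongs to the Polycomb complex PRC1.6. It had 8.71, 8.55 and 8.69 in ADR+4-OHT cultures and 8.14, 8.21 and 8.50 in ADR cultures, against 8.26, 8.21 and 8.17 in untreated cells. Outgrowth cells measured 8.32, 7.98 and 8.25 when big and 8.16, 8.34 and 8.14 when small, and 8.24 and 8.29 after ADR alone. The 3 ADR+4-OHT arrays were the 3 highest of the 17, with the ADR array of 5043 next.

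The Mga difference between ADR+4-OHT and untreated cells was 0.44 (SE 0.14, 95% CI 0.14 to 0.74, unadjusted p = 0.00793), higher in 3 of 3 lymphomas. Adjusted over all genes it missed the threshold (limma adjusted p = 0.105), as did ADR+4-OHT minus ADR at 0.37 (SE 0.14, limma adjusted p = 0.306). Of the other Mga probe sets that were tested, 1434746_at gave 0.34 and 1422646_at gave -0.25 against untreated cells. The 3 tested Mga probe sets thus did not share a direction.

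Mga and Mxd4 varied together across arrays. After removing the mean of each lymphoma, their signals had r = 0.833 over 17 arrays, 0.852 over the 14 arrays without those that stood apart and 0.526 over the 14 arrays without ADR+4-OHT. This is a description, since the arrays share 3 lymphomas and a common normalization. The genes most like Mxd4 over the 17 arrays were Retreg3 (r = 0.885), Tpst1 (0.879) and Synj2bp (0.876), and the one most like Mga was Mau2 (0.905).

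**Figure D4:**
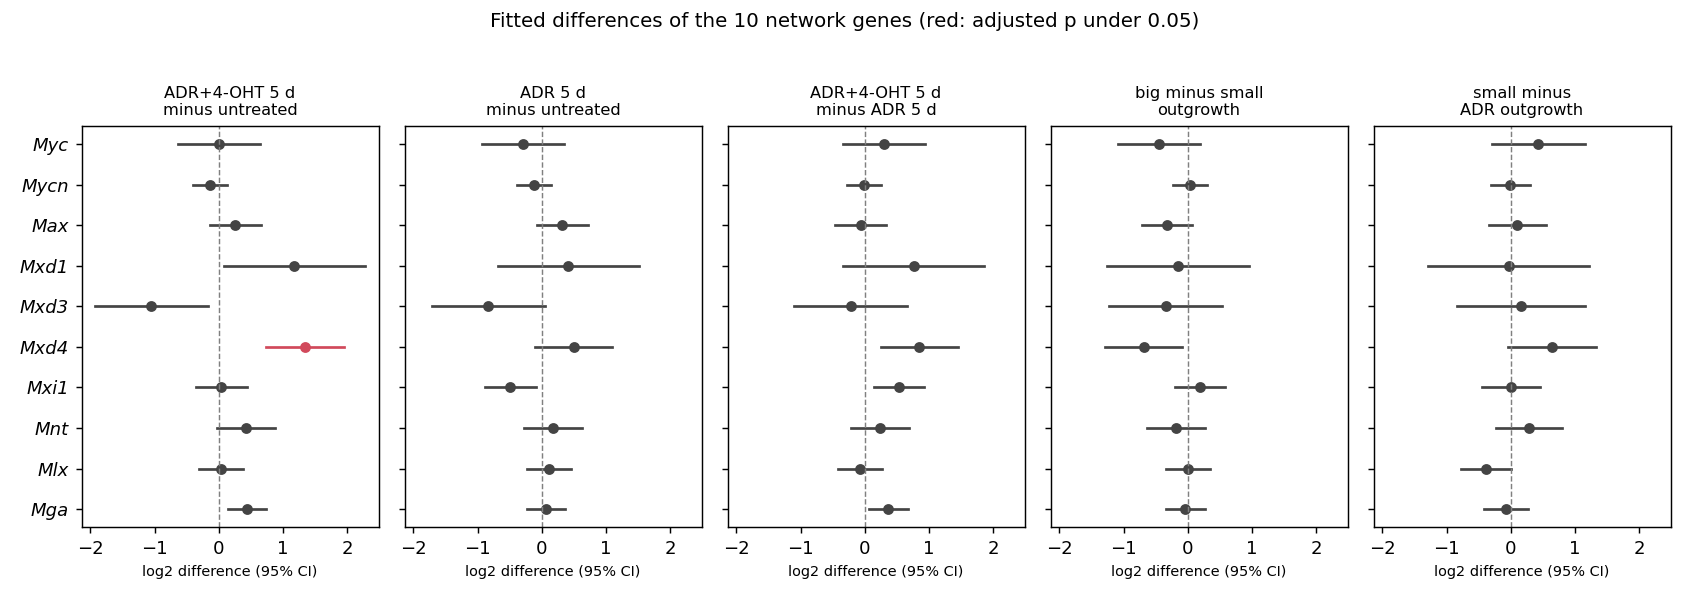
Points are fitted log2 differences of the 10 network genes (horizontal axis, with 95% confidence intervals) in 5 comparisons, one per panel, and a red point marks an adjusted p under 0.05. Mxd4 in ADR+4-OHT minus untreated (1.35, 0.75 to 1.95) is the 1 red point, and the interval of Myc in that panel runs from -0.63 to 0.64.

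Myc (chr15:61985341-61990361) itself, which the transgene drives, showed no called difference. It had 11.66, 11.59 and 12.09 in ADR+4-OHT cultures and 11.66, 10.94 and 11.84 in ADR cultures, against 11.78, 11.83 and 11.72 in untreated cells. In outgrowths it had 12.00, 11.61 and 11.37 in big cells, 12.13, 12.53 and 11.68 in small cells, and 11.42 and 11.97 after ADR alone. All groups overlapped, and the lowest value was that of the ADR array of 4936, which stood apart.

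Myc differed by 0.005 between ADR+4-OHT and untreated cells (SE 0.29, 95% CI -0.63 to 0.64, limma adjusted p = 0.997). The interval leaves room for changes of up to about that size in either direction, so it does not show that Myc was equal. Its 1 probe set, 1424942_a_at, was not shown by these files to separate the transgene from the mouse's own Myc, so the levels stand for their sum at most.

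Mycn (chr12:12936093-12941836), the Myc relative best known from embryonic and neural tissue, cannot be given a level here. Its chosen probe set, 1425923_at, lay between 14.33 and 14.79 on all arrays, a mean higher than that of 99.92% of all probe sets. The others, 1425922_a_at and 1417155_at, had means of 4.59 and 2.98. The 3 probe sets thus disagree on whether Mycn is among the strongest or the weakest signals. On the chosen one, ADR+4-OHT minus untreated was -0.14 (SE 0.12, limma adjusted p = 0.589).

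Max (chr12:76937269-76962323), the shared partner of the whole network, had 8.44, 8.44 and 8.97 in ADR+4-OHT cultures and 8.92, 8.55 and 8.57 in ADR cultures, against 8.40, 8.25 and 8.42 in untreated cells. The outgrowth arrays gave 8.26, 8.12 and 8.02 in big cells, 8.74, 8.40 and 8.24 in small cells, and 8.27 and 8.44 after ADR alone. It was above untreated cells in 3 of 3 lymphomas in both 5-day groups, by 0.26 with 4-OHT (SE 0.18, limma adjusted p = 0.484) and by 0.32 without (SE 0.18, limma adjusted p = 0.503). Neither difference was called.

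Mlx (chr11:101086707-101092207) is the Max-like partner through which the Mondo proteins, sensors of glucose, join the network. It had 7.47, 7.57 and 7.53 in ADR+4-OHT cultures and 7.56, 7.73 and 7.50 in ADR cultures, against 7.50, 7.32 and 7.63 in untreated cells. Outgrowth cells measured 7.43, 7.25 and 7.56 when big and 7.62, 7.49 and 7.11 when small, and 7.86 and 7.73 after ADR alone. ADR outgrowth had the highest Mlx mean, and small outgrowth minus ADR outgrowth was -0.38 (SE 0.18, limma adjusted p = 0.387), lower in 2 of 2 lymphomas.

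Over the network as a whole, ADR+4-OHT minus untreated was above 0 for 8 of 10 members, with a median of 0.15 against 0.002 over all genes tested. Among those 8, Myc (0.005), Mlx (0.04) and Mxi1 (0.04) were near 0, and each was above 0 in only 1 of 3 lymphomas. The count of 8 is thus no common rise of the network. Max, Mxd1, Mxd4 and Mga, 4 of 10, had the same sign in all 3 lymphomas, beside 42% of all genes. That share is near the background, so the agreement between lymphomas is no result about the network.

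No member was called in ADR against untreated cells, where limma called 0 of 11897 genes (0%) and 1348 had an unadjusted p under 0.05. The same count of 0 (0%) was found for ADR+4-OHT against ADR, with 1490 genes at an unadjusted p under 0.05. Among those 1490 were 3 members, Mxd4, Mxi1 and Mga. Each was higher with 4-OHT in 3 of 3 lymphomas, and none passed after adjustment.

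Among outgrowths, big against small cells again gave 0 calls by limma (0%), with 1243 genes at an unadjusted p under 0.05. Mxd4 was the 1 member among them, at -0.68 (SE 0.28, 95% CI -1.28 to -0.08, limma adjusted p = 0.401), lower in big cells in 3 of 3 lymphomas. Its other tested probe sets gave smaller differences, -0.46 on 1434379_at and -0.15 on 1422574_at. On 1422574_at lymphoma 5043 went the other way, with 7.66 in big and 7.51 in small cells. Both outgrowth arrays of 5043 are among those that stood apart, which limits every count over lymphomas here. Max at -0.32, Mxd3 at -0.34 and Myc at -0.45 were also lower in big cells in 3 of 3, and Mxi1 at 0.19 was higher in 3 of 3, with limma adjusted p of 0.578 to 0.849. The other Mxi1 probe set, 1425732_a_at, went the opposite way at -0.55 (SE 0.20, limma adjusted p = 0.273 over probe sets). It had 6.41, 6.30 and 5.91 in big cells against 6.67, 6.68 and 6.93 in small cells. On the chosen probe sets, 5 of 10 members had one sign in every lymphoma, beside 41.1% of all genes. In the same comparison the fibroblast markers were higher in big cells for 5 of 5 tested, by a median of 3.24, and the macrophage markers for 7 of 7, by a median of 1.57. The filter asks for 4.86 on only 3 arrays, so a marker can be tested through the group where it is high. These counts are therefore descriptions. The mean of 8 fibroblast markers was 6.73 to 7.83 in big cells and 4.89 to 5.68 in small cells. Their part in the lower Mxd4 of big cells was not tested.

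Small outgrowth against ADR outgrowth gave 0 calls (0%), with 1598 genes at an unadjusted p under 0.05 by limma, none of them a member. Mxd4 was higher in small outgrowth by 0.64 (SE 0.31, limma adjusted p = 0.396), in 2 of 2 lymphomas. Whether the 4-OHT difference itself changed between 5 days and outgrowth was tested directly, and 0 genes were called (0%, limma), with 1129 at an unadjusted p under 0.05. For Mxd4 that change was -0.21 (SE 0.42, limma adjusted p = 0.889), and for Mga it was -0.44 (SE 0.21, limma adjusted p = 0.529).

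Against untreated cells, big outgrowth had 49 called genes (0.412%), none of them a member. ADR outgrowth had 0 (0%, limma, 534 at an unadjusted p under 0.05), and small outgrowth had 0 (0%, limma, 987 at an unadjusted p under 0.05). Mxd4, which was raised at 5 days of ADR+4-OHT, differed from untreated cells by -0.32 in big outgrowth, 0.36 in small outgrowth and -0.28 in ADR outgrowth, with no call. Whether those differences were smaller than the one at 5 days was not tested.

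Genes that work with the network were read from the same fit, for ADR+4-OHT against untreated cells. There 2.94% of all genes tested were called, and 19.2% had an unadjusted p under 0.05. The lists are short, so 1 call in a list is a result about that gene and not about the list. Of 7 tested Mxd and Mnt corepressor genes, 0 rose and 1 fell: Sin3a, the scaffold through which Mxd proteins bring histone deacetylases. Sin3a had 8.18, 8.04 and 7.71 in ADR+4-OHT cultures, against 8.40, 8.75 and 8.84 in untreated cells, a difference of -0.68 (SE 0.16, limma adjusted p = 0.0479). The call held in 11 of 29 alternatives.

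Of 10 tested genes for the stability of the Myc protein, 0 rose and 1 fell. Skp2, a ubiquitin ligase subunit that marks Myc for destruction, had 8.21, 7.52 and 7.42 in ADR+4-OHT cultures, against 9.01, 8.68 and 8.88 in untreated cells (difference -1.13, SE 0.22, limma adjusted p = 0.0271). It was 8.86 to 9.02 in ADR cultures. In ADR+4-OHT against ADR, 0 of 11897 genes were called, so Skp2 was not called there. In big outgrowth it was 7.65 to 7.86, close to the ADR+4-OHT level, but the difference from untreated cells was not called there (-1.11, limma adjusted p = 0.0565). The ADR+4-OHT call held in 21 of 29 alternatives.

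Of 21 known Myc targets, 0 rose and 1 fell. Shmt2, a mitochondrial enzyme of serine and one-carbon metabolism, had 9.43, 9.40 and 9.59 in ADR+4-OHT cultures, against 10.81, 10.49 and 10.51 in untreated cells (difference -1.13, SE 0.20, limma adjusted p = 0.0209). Its call held in 21 of 29 alternatives. The median over the 21 was -0.02, beside 0.002 over all genes, with 9 above and 12 below 0, so the targets had no common direction there. Other comparisons were less even, with 0 targets called. In big outgrowth against untreated cells 17 were below 0 and 4 above (median -0.40, beside -0.04 over all genes), with -0.66, 0.03 and -0.62 within lymphomas. ADR+4-OHT against ADR had 17 below and 4 above (-0.29, beside -0.02), and ADR against untreated cells had 15 above and 6 below (0.22, beside 0.02).

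Of 12 tested Myc cofactors (median -0.14), limma called 0 in that comparison, and 1 had an unadjusted p under 0.05. Counts at that unadjusted level stand beside 19.2% of all genes tested. Of 7 tested PRC1.6 genes that work with Mga (median -0.12), limma called 0, and 2 had an unadjusted p under 0.05. Of the Mondo arm and Mycl, 3 of 5 were tested, limma called 0, and 1 had an unadjusted p under 0.05. That one was Mlxip, the Mondo partner of Mlx, with a difference of 1.23 (SE 0.31, limma adjusted p = 0.0543), higher in 3 of 3 lymphomas, and it passed the test in 6 of 29 alternatives.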

How the data were processed

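Affymetrix's one-cycle procedure was used to label total RNA, per the labels' protocols, for hybridisation to arrays holding 45101 probe sets. Values are log2 signals made by the authors, and RMA and Partek are named in the submitters' processing notes, with versions and order not given in the sources used here. From the values, every probe set has an equal median in each lymphoma (tolerance 1e-06), so lymphoma offsets had already been taken out. The table has 18 columns of values, of which 17 hold data; the empty one is the ADR outgrowth of lymphoma 5043. No depth exists for arrays, and precision rests on how many there are.

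Probe sets were named from GEO's platform annotation: 34958 carried 1 symbol and were used, 932 carried more than 1 and 9211 were absent from it. The test took genes that reached 4.86, the overall median signal, on 3 or more arrays. limma 3.58.1 in R 4.3.3 was fitted with group terms and lymphoma as an additive block (9 residual and 2.53 prior degrees of freedom), and was tested on simulated data. Python 3.11.15, pandas 2.3.3 and matplotlib 3.10.9 gave the descriptions and figures. The treatment protocol states that each lymphoma had both treatments, which is the source of the pairing. The values could not check it, because the removed medians push arrays of 1 lymphoma apart: group-centred values had a median r of -0.117 within lymphomas (40 pairs) and 0.058 between them (80 pairs).

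The 10 members were named in every group, with every probe set of theirs. Of each pathway list the members past the threshold were named, at most 4 a comparison, or the nearest where none passed, and the 3 genes most like a member by Pearson r over 17 arrays. The members and lists were chosen with earlier results of these data known, so their counts are descriptions. Alternatives covered the block, the filter, the probe set rule, normalization, array weights and leaving out arrays or lymphomas.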

Additional observations from a re-analysis of the deposited data

How the results depend on the processing

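Of 2799 differences of network genes under an alternative (F tests apart), 2541 kept their direction and their side of the threshold, 243 were uncalled values that turned sign, 10 lost a call, 5 gained one and 0 called values turned sign. The Mxd4 rise in ADR+4-OHT against untreated cells was called by limma in 20 of 29 alternatives. It was lost with the mean over the probe sets of a gene (0.82, adjusted p = 0.0616) and without lymphoma 4146 (1.29, adjusted p = 0.189), 4936 (1.61, 0.152) or 5043 (1.14, 0.23), each of which leaves fewer samples. Of 17 single arrays left out, 5 ended it, all of them arrays of the groups compared. Within those groups only the ADR+4-OHT array of 4146 could be left out with the call kept (1.33, limma adjusted p = 0.0458). An array of another group cannot move the difference, which stayed at 1.35 without it. Calls kept that way are among the 20 and say little about how firm the difference is. Counts out of 29 for other genes in this comparison hold such alternatives too. Outside the 29, probe set 1422574_at on its own did not pass (0.66, 0.232). The Mxd4 F test was called in 8 of 29 alternatives (adjusted p 0.0106 to 0.273), among them 3 of 17 with a single array left out (ADR outgrowth of 4146, 0.0352, and of 4936, 0.0487, and untreated of 4936, 0.0422). The F test of Mxd4 was thus lost in 21, and 2 other members gained an F call with array weights, Max (0.0379) and Mxd3 (0.0199). The 5 gained differences also came with array weights, whose fit did not converge fully: Mxd3 -1.06, Mnt 0.63 and Mga 0.44 in ADR+4-OHT against untreated cells, and Mxd4 0.98 and Mga 0.43 in ADR+4-OHT against ADR. Among the other genes named for ADR+4-OHT against untreated cells, the calls of Lyz2 and Cd36 held in 20 and 24 of 29.

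Paired analysis: with no replicate block, the genes called were 623 (350 with the block) in ADR+4-OHT against untreated cells, 1 in ADR against untreated, 13 in ADR+4-OHT against ADR, 30 in big against small, 1 in small against untreated, 112 (49) in big against untreated, 1 in the change of the 4-OHT difference and 1157 (313) by the F test, and Mxd4 kept its call (adjusted p = 0.0218). Of the 623, 348 were among the 350. Lymphoma medians had already been taken out of the values, so the fit without the block was no unpaired analysis. Its p-values take no account of that removal, and its larger counts and kept Mxd4 call are no added support. Array weights gave 1583, 18, 1099, 261, 25 and 1421 in the same comparisons (ADR+4-OHT against untreated to big against untreated), 4132 by the F test and 9 calls of members in place of 2. The mean over probe sets gave 212 in ADR+4-OHT against untreated, 1 in ADR+4-OHT against ADR and 0 calls of members. Quantile normalization gave 1 call of a member. Without the 3 arrays that stood apart there were 80 in big against untreated, 3 in big against small, 1 by the F test and 1 call of a member. Without these and the ADR+4-OHT array of 4146 there were 779 in ADR+4-OHT against untreated, 2 in big against small, 17 by the F test and 1 call of a member. No filter, a stricter filter and median centring moved no count by over 1.5 times. The stricter filter, median centring and single left-out arrays were chosen after seeing the data. The all-gene median moved by at most 0.05 with another scaling. The cause of these shifts was not tested.

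Leaving out 1 lymphoma or 1 array, the counts ranged from 0 to 547 in ADR+4-OHT against untreated, 0 to 3 in ADR against untreated, 0 to 15 in ADR+4-OHT against ADR, 0 to 26 in big against small, 0 to 1 in small against ADR outgrowth, 0 to 130 in big against untreated, 0 to 2 in the change of the 4-OHT difference, 0 to 1256 by the F test, 0 to 2 calls of members, and 0 throughout in both other comparisons with untreated. Signal limits Mycn and the Mxd4 probe set below the filter, and 3 lymphomas limit all intervals.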

Other observations

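The genes whose signals followed each other network gene most closely over the 17 arrays, after removing lymphoma means, give a short list of leads for each. Myc was most like Elavl3 (r = 0.879), Gm13205 (0.872) and Mbtd1 (0.864). Mxd3 was most like Vbp1 (0.916), Mrps9 (0.91) and Eaf2 (0.907), and Mxd1 was most like Trim12c (0.874), Ap3m2 (0.873) and Trim30a (0.851). These are descriptions over arrays that share 3 lymphomas.

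Txnip, a well known target of the Mondo proteins and Mlx, had 13.25, 12.51 and 13.32 in big outgrowth and 12.88, 12.62 and 13.35 in small outgrowth, against 11.45, 12.55 and 12.14 in untreated cells. It was above untreated cells in 3 of 3 lymphomas in small outgrowth (0.90, SE 0.38, limma adjusted p = 0.583) and in 2 of 3 in big outgrowth (0.97, SE 0.38, limma adjusted p = 0.253), with no call. In 4936 small outgrowth and untreated cells were close, at 12.62 and 12.55. The outgrowth arrays of 5043, at 13.32 and 13.35, are among those that stood apart. ADR outgrowth had 12.92 in 4146, as high as small outgrowth there, and 11.19 in 4936. The second Mlx probe set, 1425930_a_at, had 7.20, 7.52 and 7.48 in ADR cultures and 6.66, 5.85 and 6.69 in big outgrowth, against 6.90, 6.75 and 7.14 in untreated cells. Its F test over the 6 groups missed the threshold (limma adjusted p = 0.0941 over probe sets), as did that of the chosen Mlx probe set (0.553). Against untreated cells both had the same signs. The differences were 0.47 and, on the chosen one, 0.11 in ADR cultures, and -0.53 and -0.07 in big outgrowth.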
